A study of Mus musculus with 6 samples.

Results

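The integrated stress response and the unfolded protein response were followed through 10 genes: Atf4, Ddit3, Ppp1r15a, Trib3, Chac1, Asns, Xbp1, Hspa5, Dnajb9 and Herpud1. They were chosen by name from the 28786 genes of the count table, and all 10 were present and passed the low-count filter. RNA was measured in haematopoietic stem cells (HSCs) sorted from the flushed bone marrow of C57BL/6 mice (wild type, 6 to 8 weeks old) as cells without lineage markers and CD48 and with Sca-1, c-Kit and CD150. The cells had been split by TMRM, a dye that mitochondria take up according to their membrane potential, into 3 TMRM-high and 3 TMRM-low libraries of 1500 cells each, and no other treatment or allele is given. The labels do not state whether each library is a mouse of its own, and the p-values therefore reflect only how far these libraries spread, possibly for technical reasons.

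In the integrated stress response, kinases that sense different stresses phosphorylate the translation factor eIF2, which lowers protein synthesis as a whole while the Atf4 mRNA is translated more. ATF4 then switches on genes of amino acid supply, redox balance and, under lasting stress, cell death. The unfolded protein response is the arm that starts in the endoplasmic reticulum (ER), where the sensors PERK, IRE1 and ATF6 raise ER chaperones, the splicing of Xbp1 mRNA and the degradation of misfolded proteins. Gene counts do not show eIF2 phosphorylation, the translation of Atf4 or whether Xbp1 mRNA is spliced. HSCs are known for low protein synthesis and for sensitivity to ER stress.

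In 7 of the 10 genes every TMRM-high library had more RNA than any TMRM-low library: Atf4, Ddit3, Ppp1r15a, Hspa5, Herpud1, Dnajb9 and Xbp1. The first 6 of these passed the test, with fitted levels 1.58 to 2.27 times those of TMRM-low libraries. Trib3, Chac1 and Asns, which are targets of ATF4 and, for Asns, of amino acid shortage, overlapped between the groups and did not pass. Of all 13662 genes tested, 5.84% were called higher and 5.12% lower, while 18.4% had non-overlapping groups with TMRM-high above and 17.0% with TMRM-high below. None of the 10 genes was called lower by edgeR, DESeq2 or limma voom, and 0 were lower at an unadjusted p under 0.05. The median log2 fold change (TMRM-high minus TMRM-low) was 0.67 over the 10 genes and -0.03 over all genes tested.

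Calls are at an adjusted p below 0.05 in edgeR's quasi-likelihood test, two-sided, with Benjamini-Hochberg adjustment over all 13662 genes. The libraries held 14270069 to 22070594 estimated counts. Genes above 0 numbered 17667 to 18568 in TMRM-high and 16633 to 16863 in TMRM-low libraries. TMRM-high libraries resembled each other more closely than TMRM-low libraries did: fitted within 1 group at a time, edgeR's biological coefficient of variation came to 7.22% (TMRM-high) and 41.6% (TMRM-low), and the test uses 1 estimate of spread for both. With the 3 TMRM-high libraries summed into 1, as if they were 1 sample, none of the 6 calls was kept by edgeR, while each fold change moved by less than its SE. Leaving out 1 TMRM-high library left 4 or 5 of the 6 calls. The lists of other cell types also differed between the groups, and their values are given after the genes. In bulk RNA fewer cells of a type and less RNA per cell cannot be told apart.

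Promoter windows of 250 bases before and 50 bases after the RefSeq start (GRCm38.p6) were matched for all 10 genes and searched on both strands for 5 textbook elements of these pathways. Sites are shown for the genes in which an element lay before the RefSeq start, because they include genes that rose and genes that did not pass. The capitals mark the element within 30 bases of the gene's own strand, 5′ to 3′. In Hspa5 this is the ER stress element, in Herpud1 the ER stress element II and the composite element bound by ATF4 with C/EBP factors, in Chac1 and Asns that composite element, and in Ppp1r15a the cyclic AMP response element.
Hspa5, chr2:34772020-34772049, plus strand: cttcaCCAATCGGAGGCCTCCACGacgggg
Herpud1, chr8:94386368-94386397, plus strand: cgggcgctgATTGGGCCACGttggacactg
Herpud1, chr8:94386306-94386335, plus strand: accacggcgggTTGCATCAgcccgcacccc
Chac1, chr2:119351038-119351067, plus strand: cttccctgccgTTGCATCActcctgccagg
Asns, chr6:7693214-7693243, minus strand: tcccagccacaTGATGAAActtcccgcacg
Ppp1r15a, chr7:45526262-45526291, minus strand: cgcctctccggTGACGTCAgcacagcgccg

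The elements were searched as TGATGNAA for the composite element, which 3.97% of all 32851 promoter windows held, CCAAT and CCACG with 9 free bases between them for the ER stress element (0.119%), ATTGG and CCACG with 1 free base between them for the ER stress element II (0.0365%), TGACGTGG for the unfolded protein response element (0.676%) and TGACGTCA for the cyclic AMP response element (1.79%). No matches in the 10 windows overlapped. The Hspa5 element lay 65 to 47 bases before the RefSeq start, and the Herpud1 pair lay 112 to 105 and 52 to 42 bases before it. GENCODE M21 starts Hspa5 and Asns further upstream, so that their sites fall in exon 1 there. Trib3 had a composite element at 152344039 to 152344046 of chromosome 2, which is after its RefSeq start but before the GENCODE start of this minus-strand gene. The windows of Atf4, Ddit3, Xbp1 and Dnajb9 held none of the 5. The composite element was thus present both in Herpud1, which rose, and in Chac1, Asns and Trib3, which did not pass. A match describes letters in a window and does not show that a factor bound.

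Levels are given as CPM, counts scaled to an equal library total, in replicates 1, 2 and 3 of each group. Atf4, the transcription factor at the centre of the integrated stress response (ENSMUSG00000042406, chromosome 15, 80255184 to 80257541 on GRCm38), was at 375, 373 and 401 CPM in TMRM-high libraries. In TMRM-low libraries it was at 227, 265 and 230.1 CPM. The groups did not overlap, and the mean rose from 241 ± 21.1 to 383 ± 15.5 CPM (SD, n = 3; log2 fold change 0.67, SE 0.079, edgeR adjusted p = 0.0019). Atf4 was called in each fit that left out 1 library, with adjusted p-values of 0.00142 to 0.0187.

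Ddit3 encodes CHOP, a transcription factor induced through ATF4 and tied to cell death under lasting ER stress (ENSMUSG00000025408, chromosome 10, 127290774 to 127296288). It was at 51.4, 45.7 and 45.2 CPM in TMRM-high and 18.1, 24.8 and 19.9 CPM in TMRM-low libraries. Every TMRM-high library was above every TMRM-low library, and Ddit3 had the highest fitted fold change of the 10 genes (log2 fold change 1.18, SE 0.182, edgeR adjusted p = 0.0067). Without TMRM-high replicate 1 the adjusted p was 0.0571, and the log2 fold change was 1.09 to 1.32 whichever library was left out. The reads counted for Ddit3 may not all be its own, since 3.97% of its exon bases overlap Mars on the opposite strand and the libraries do not mark strand. Another annotated gene entry, also named Ddit3 and on the same strand, overlaps 6.13% of its exon bases and is absent from the deposited counts. Mars itself was at 44.7 to 77.3 CPM and did not pass.

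Ppp1r15a encodes GADD34, the regulatory subunit that brings a phosphatase to eIF2 and ends the response (ENSMUSG00000040435, chromosome 7, 45522916 to 45526268). TMRM-high libraries had 349, 342 and 358 CPM. TMRM-low libraries had 193, 226 and 209 CPM. The TMRM-high values lay close together and above all the others (log2 fold change 0.74, SE 0.074, edgeR adjusted p = 0.00082), and the call held with any 1 library left out. Ppp1r15a is also known to rise early after many stimuli and after cell handling. All 13 immediate early genes of a marker list were higher in TMRM-high libraries (edgeR), with a summed level of 10400 to 10900 CPM against 5750 to 6300 CPM. The first pair, Fos (848 ± 15.8 against 644 ± 59.2 CPM) and Fosb (184 ± 5.73 against 30.6 ± 10.03 CPM), were among them. Whichever TMRM-high library was left out, 10 of the 13 calls were kept, Fosb with them, and Fos lost its call. The part of the immediate early genes in the rise of Ppp1r15a, Atf4 or Ddit3 was not tested.

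**Figure D1:**
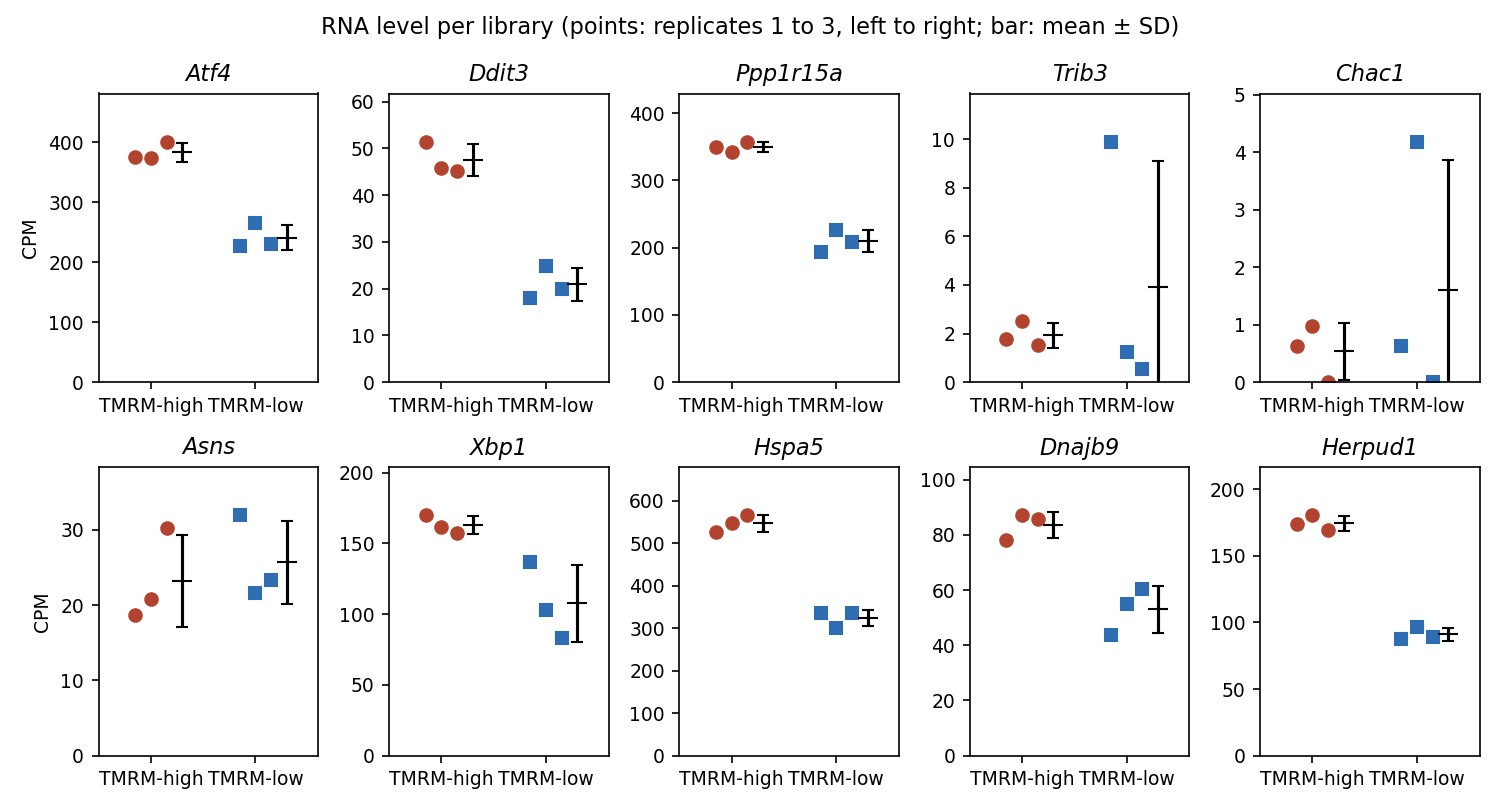
RNA level in CPM of the 10 genes in each library, with points for replicates 1 to 3, a bar for the mean ± SD of 3 libraries, and each vertical axis starting at 0, where the lower bars of Trib3 and Chac1 in TMRM-low libraries end. In Atf4, Ddit3, Ppp1r15a, Xbp1, Hspa5, Dnajb9 and Herpud1 the 3 TMRM-high points lie above the 3 TMRM-low points, while in Trib3 and Chac1 a single TMRM-low library is highest.

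Trib3, Chac1 and Asns are commonly read as a measure of ATF4 activity. Trib3, a pseudokinase that restrains ATF4 and CHOP, was at 1.77, 2.51 and 1.53 CPM in TMRM-high libraries (ENSMUSG00000032715, chromosome 2, 152337422 to 152344032). TMRM-low replicate 1 had 9.89 CPM, while replicates 2 and 3 had 1.25 and 0.544 CPM. The gene did not pass (log2 fold change -1.004, SE 1.005, edgeR adjusted p = 0.59), and 1 library set the sign: without TMRM-low replicate 1 the log2 fold change was 1.12, with an adjusted p of 0.264.

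Chac1, an enzyme that degrades glutathione, was close to the limit of detection (ENSMUSG00000027313, chromosome 2, 119351229 to 119354381). It had 14, 19 and 0 counts in TMRM-high and 11, 67 and 0 counts in TMRM-low libraries. TMRM-low replicate 2 held most of them, at 4.18 CPM. The log2 fold change was -1.54 (SE 1.601, edgeR adjusted p = 0.61), and 0.79 without that library (adjusted p = 0.782). The 95% intervals of the log2 fold change ran from -3.34 to 1.33 for Trib3 and from -5.26 to 2.19 for Chac1. Rises of a few fold and larger falls lie within them. Much of the width for Trib3 came with TMRM-low replicate 1, without which its SE was 0.605.

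Asns, asparagine synthetase, was measured well enough for a narrower statement (ENSMUSG00000029752, chromosome 6, 7675169 to 7693254). It was at 18.6, 20.8 and 30.2 CPM in TMRM-high and 31.9, 21.7 and 23.4 CPM in TMRM-low libraries. The groups overlapped, with TMRM-high replicates 1 and 2 below and replicate 3 within the range of the TMRM-low libraries. The log2 fold change was -0.15 (SE 0.263, edgeR adjusted p = 0.78) with a 95% interval of -0.76 to 0.47. That interval lies below the fitted log2 fold changes of the 6 called genes, although their difference from Asns was not tested. Without TMRM-low replicate 1 the log2 fold change was 0.04 (adjusted p = 0.929).

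Of the 4 ER genes, 3 rose. Hspa5 encodes BiP, the main ER chaperone, which also holds the 3 sensors inactive (ENSMUSG00000026864, chromosome 2, 34771970 to 34777547). It was at 526, 548 and 567 CPM in TMRM-high and 335, 302 and 336 CPM in TMRM-low libraries. The groups were far apart for their spread, with a mean of 547 ± 20.1 against 324 ± 19.7 CPM (SD, n = 3; log2 fold change 0.75, SE 0.066, edgeR adjusted p = 0.00044). The site shown above for Hspa5 is the ER stress element through which ATF6 and XBP1 are known to raise it.

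Herpud1, a membrane protein of ER-associated degradation (ENSMUSG00000031770, chromosome 8, 94386438 to 94395377), was at 173, 180.5 and 169 CPM in TMRM-high libraries. In TMRM-low libraries it was at 87.6, 96.5 and 89.1 CPM. No library of one group came near the other, and the log2 fold change was 0.94 (SE 0.083, edgeR adjusted p = 0.00045). Hspa5 and Herpud1 stayed called with any 1 library left out, at adjusted p-values up to 0.006 and 0.00643.

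Dnajb9 encodes ERdj4, a BiP co-chaperone raised by XBP1 (ENSMUSG00000014905, chromosome 12, 44205559 to 44210326). TMRM-high libraries had 78.2, 87.1 and 85.6 CPM, and TMRM-low libraries 43.6, 55.0 and 60.3 CPM. The groups did not overlap, though TMRM-low values spread more (log2 fold change 0.66, SE 0.147, edgeR adjusted p = 0.029). Without TMRM-high replicate 1, 2 or 3 the call was lost, at adjusted p-values between 0.103 and 0.152. The processed pseudogene Gm6568 shares 10.8% of the 31-base words of Dnajb9 transcripts, but it had at most 0.139 CPM in any library.

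Xbp1, the transcription factor whose mRNA IRE1 splices (ENSMUSG00000020484, chromosome 11, 5520659 to 5525893), was at 170.1, 162 and 158 CPM in TMRM-high libraries. TMRM-low libraries spread over 137, 103 and 83.3 CPM. All TMRM-high values were higher, but the difference did not pass (log2 fold change 0.60, SE 0.169, edgeR adjusted p = 0.064). It passed without TMRM-low replicate 1 (adjusted p = 0.00789) and by DESeq2 (0.0072) and limma voom (0.00783), so the call depends on the tool and on 1 library. Xbp1 is also a defining gene of antibody-secreting cells. Of 7 tested markers of these cells 4 were higher and none lower (edgeR; 0 lower also at an unadjusted p under 0.05 and by DESeq2 or limma voom), with a summed level of 219 to 235 CPM in TMRM-high and 87.7 to 97.3 CPM in TMRM-low libraries. The first pair on the list, Jchain and Mzb1, were at 130.1 to 146 and 35.5 to 40.9 CPM in TMRM-high, and at 60.4 to 80.2 and 2.12 to 3.76 CPM in TMRM-low libraries. The sort described above took cells without lineage markers. The part of these markers in the level of Xbp1, Hspa5 or Dnajb9 was not tested.

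**Figure D2:**
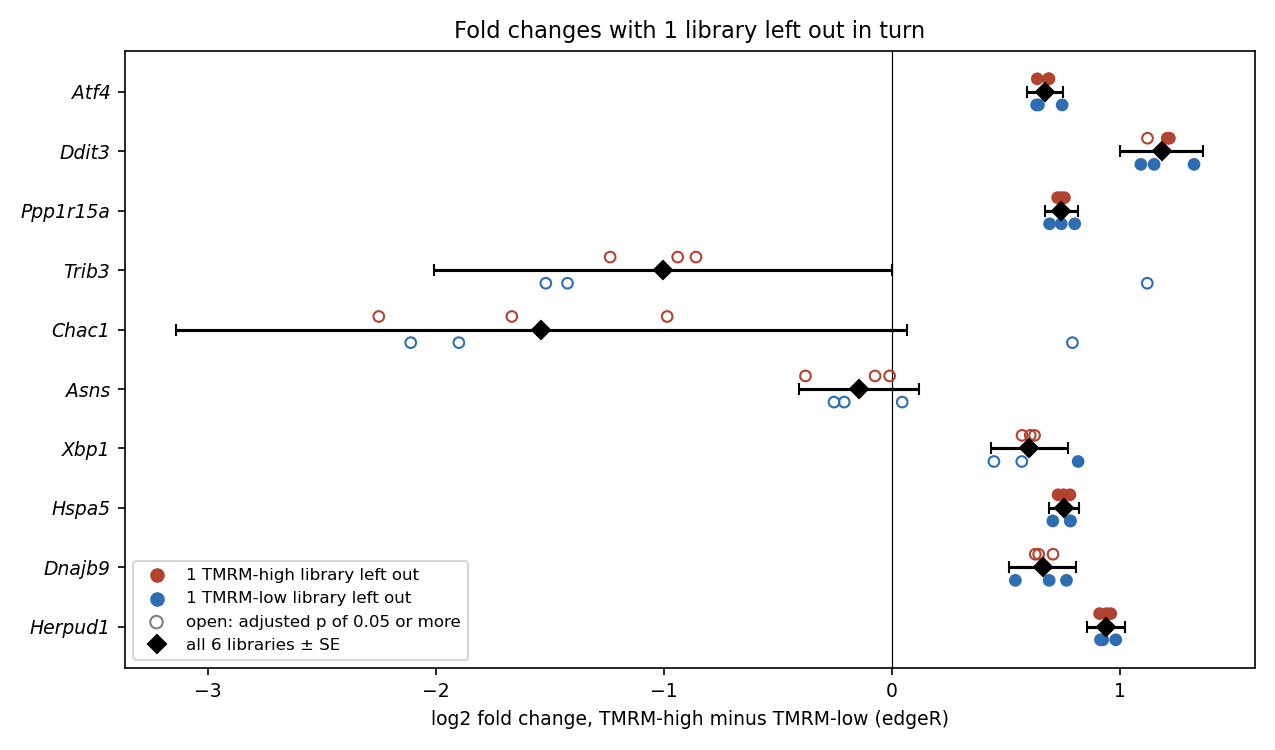
Log2 fold change (TMRM-high minus TMRM-low) of the 10 genes with all 6 libraries (diamonds ± SE) and with 1 library left out in turn, filled where the adjusted p was below 0.05 and open otherwise. Atf4, Ppp1r15a, Hspa5 and Herpud1 are filled in every fit, Dnajb9 is open whenever a TMRM-high library is missing, and the signs of Trib3, Chac1 and Asns each turn with 1 TMRM-low library.

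Per kilobase of annotated exon, the 10 genes ranged over more than 2 orders of magnitude. In TMRM-high libraries the order by mean CPM per kilobase was Atf4 (162 ± 6.56, SD, n = 3), Hspa5 (129 ± 4.76), Ppp1r15a (119 ± 2.62), Herpud1 (74.7 ± 2.46), Xbp1 (50.2 ± 1.95), Dnajb9 (32.8 ± 1.87), Ddit3 (27.7 ± 2.02), Asns (8.49 ± 2.25), Trib3 (0.911 ± 0.242) and Chac1 (0.328 ± 0.302). No neighbours in that order overlapped between libraries. In TMRM-low libraries the order was the same, from 102 ± 8.93 for Atf4 to 0.981 ± 1.38 for Chac1. There the ranges of Hspa5 and Ppp1r15a, Herpud1 and Xbp1, Ddit3 and Asns, and Trib3 and Chac1 overlapped. Atf4 lay above 97.0% of all genes tested by mean CPM per kilobase, Hspa5 above 96.1% and Ppp1r15a above 95.7%, whereas Trib3 lay above 24.9% and Chac1 above 15.5%.

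Beyond the 10 genes, 148 others of the same pathways were listed by role, and 142 of them were tested. Over all 13662 genes tested, 5.84% were called higher and 5.12% lower, which is the background for this and every following list. Of the 142, 20 rose and 6 fell while 116 did not pass. Their median log2 fold change was 0.06. With TMRM-high replicate 1, 2 or 3 left out 5 were higher and 2 or 3 lower, with a TMRM-low library left out 19 to 26 were higher and 8 to 13 lower (10 without replicate 2 and 13 without replicate 3), and with the TMRM-high libraries summed 0 were higher and 1 lower. Among regulators of eIF2, 1 of 14 genes was higher and 1 lower. Ppp1r15b, the constitutive partner of Ppp1r15a, rose (log2 fold change 0.82, SE 0.161, edgeR adjusted p = 0.0187). Eif2ak2, which encodes the double-stranded RNA sensor PKR and is itself an interferon-induced gene, fell by 0.58 on the log2 scale (SE 0.134, adjusted p = 0.0312). Both lost their calls whichever TMRM-high library was left out, at adjusted p-values between 0.0816 and 0.185.

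The genes of the 3 ER sensors, picked out for their role after their values were seen, did not pass. Eif2ak3, which encodes PERK, was at 14.7, 14.2 and 11.7 CPM against 6.77, 8.67 and 9.47 CPM (edgeR adjusted p = 0.18). Ern1, for IRE1, was at 28.1 to 31.2 against 9.99 to 37.3 CPM, and Atf6 at 28.4 to 33.7 against 31.9 to 39.1 CPM. Groups overlapped in the latter pair but not in Eif2ak3. None of the 8 tested genes of ER sensors and their proteases was called by edgeR; 1 was higher and 1 lower at an unadjusted p under 0.05, DESeq2 called 1 lower, and limma voom called none.

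The 3 lists of ER function held 61 tested genes. Of these 14 rose, 1 fell and 46 did not pass, while 44 had a fold change above 0, as did 6448 of all 13662 genes tested. Without TMRM-high replicate 1, 2 or 3, the same 2 of the 15 called genes, Edem1 and Derl3, stayed called, and with the TMRM-high libraries summed none did. In the chaperone and folding list 6 of 22 were higher and none lower (edgeR; 1 lower at an unadjusted p under 0.05, none by DESeq2 or limma voom). Manf, a secreted ER stress protein, rose from 89.3 ± 8.45 to 133 ± 2.10 CPM (SD, n = 3; log2 fold change 0.58, SE 0.098, edgeR adjusted p = 0.0101). The lectin chaperones calnexin and calreticulin rose by less, Canx by a log2 of 0.40 (SE 0.073) and Calr by 0.26 (SE 0.055). Ero1b, an oxidase that drives disulfide bonds, rose by a log2 of 1.36 (SE 0.303; 15.5 ± 3.15 against 6.05 ± 0.704 CPM), but did not pass by limma voom (adjusted p = 0.115). P4hb, a disulfide isomerase (0.41, SE 0.109), and Hsp90b1, which encodes GRP94 (0.16, SE 0.072), did not pass. Creld2, chosen after its values were seen, and Ero1a, described with the ATF4 targets, made up the 6.

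In ER-associated degradation 4 of 18 genes were higher and 1 lower. Edem1, which steers misfolded glycoproteins to degradation, averaged 72.8 ± 4.15 CPM in TMRM-high against 27.2 ± 6.36 CPM (SD, n = 3; edgeR adjusted p = 0.0037, log2 fold change 1.42, SE 0.189), and stayed called with any 1 library left out. Ube2j1, a ubiquitin-conjugating enzyme of the ER membrane, rose by 0.95 (SE 0.175). Vcp, the ATPase that extracts substrates from the membrane, fell from 516 ± 13.2 to 411 ± 2.00 CPM (-0.33, SE 0.051). Derl3, which is also on the list of antibody-secreting cells, had 130 counts over the TMRM-high libraries and 1 over the others. Scaled for depth this is 120.0 times as much, and its exact interval at 95% runs from 21.2 to 4780.0 and covers counting error only.

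Translocation and secretion genes had 4 of 21 members higher and none lower (edgeR; 0 lower also at an unadjusted p under 0.05 and by DESeq2 or limma voom). In 13 of the 21 every TMRM-high library was above every TMRM-low one, which held for 18.4% of all genes tested. Those called were Sec63 (log2 fold change 0.66, SE 0.148) and Sec61g (0.73, SE 0.171) of the translocation channel, Serp1, which protects newly made membrane proteins (0.41, SE 0.094), and the signal peptidase subunit Spcs3 (0.59, SE 0.147). Spcs3 lost its call without TMRM-low replicate 1 (adjusted p = 0.0869) or 2 (0.0634), and Sec61g by limma voom (0.0735).

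**Figure D3:**
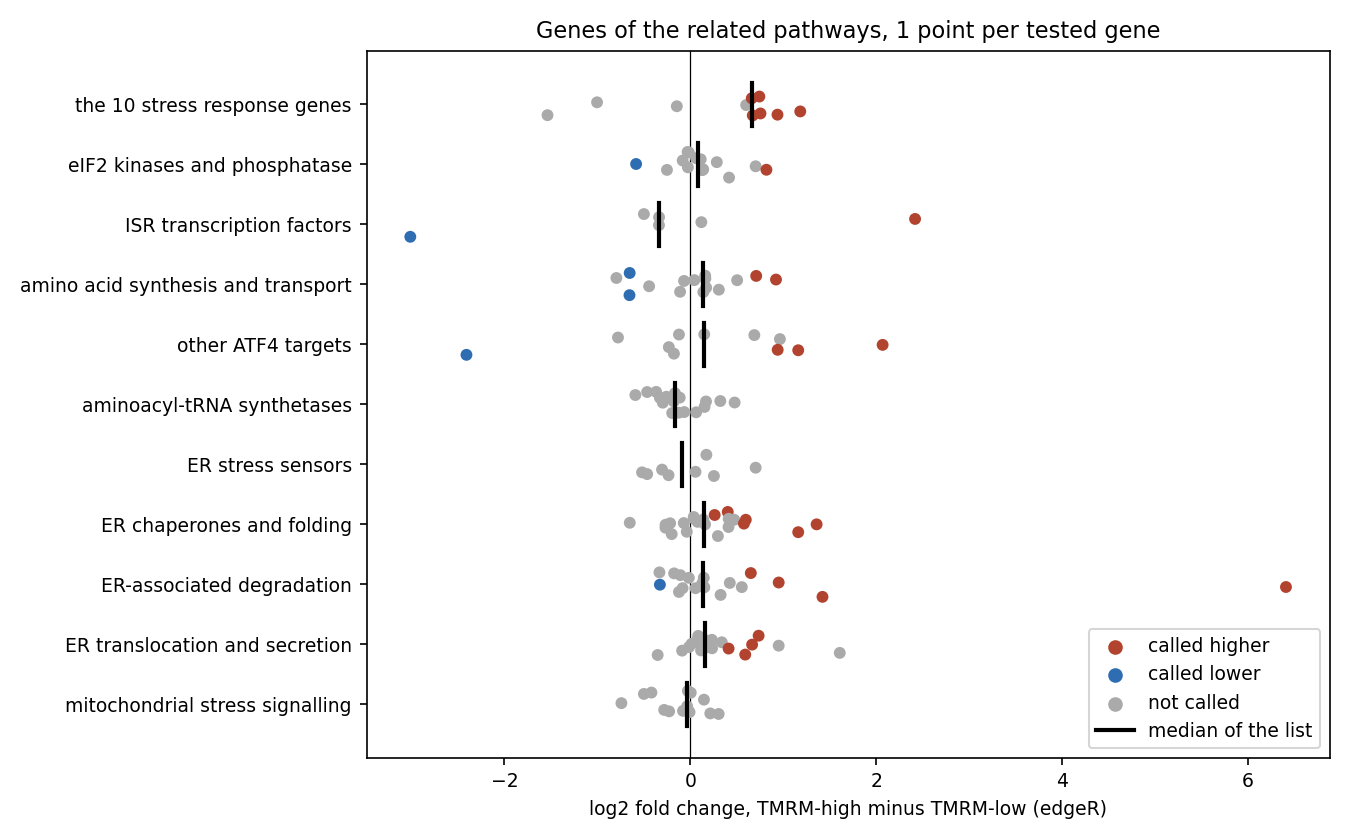
Log2 fold change (TMRM-high minus TMRM-low, edgeR) of each tested gene in the 10 stress response genes and in 10 lists of related genes, coloured by call, with a black line at the median of each list. The 3 ER lists have medians of 0.14 to 0.16 with called genes almost all to the right, while the synthetase, sensor and mitochondrial lists hold no called gene; the point at 6.41 is Derl3, which rests on 1 count in TMRM-low libraries.

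Other genes under ATF4 went both ways, with list medians of 0.14 for amino acid supply, 0.15 for other targets and -0.16 for the synthetases on the log2 scale, against -0.03 over all genes tested. In the list of amino acid synthesis and transport, 2 of 15 tested genes were higher and 2 lower. The amino acid transporter genes Slc38a2 (231 ± 8.06 against 122 ± 11.8 CPM, SD, n = 3; log2 fold change 0.92, SE 0.090) and Slc1a5 (0.71, SE 0.123) rose. The serine synthesis gene Phgdh fell from 443 ± 45.4 to 281 ± 13.95 CPM (-0.65, SE 0.086), and the mitochondrial serine enzyme gene Shmt2 fell by 0.65 on the log2 scale (SE 0.138). Slc1a5 and Shmt2 lost their calls whichever TMRM-high library was left out, and Shmt2 also without TMRM-low replicate 2, at adjusted p-values of 0.0515 to 0.125. None of 18 aminoacyl-tRNA synthetase genes was called by edgeR, with 2 higher and 2 lower at an unadjusted p under 0.05; DESeq2 called 1 higher and 2 lower and limma voom 1 each way. The most abundant of these, Kars and Vars, had log2 fold changes of -0.47 (SE 0.162) and -0.26 (SE 0.146).

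Of 6 further transcription factors 1 was higher and 1 lower, and of 11 other tested ATF4 targets 3 were higher and 1 lower. Atf3, a stress-induced partner of the AP-1 family, rose from 8.47 ± 2.19 to 45.3 ± 3.26 CPM (SD, n = 3; log2 fold change 2.42, SE 0.240, edgeR adjusted p = 0.00079). Vegfa, the vascular growth factor gene that hypoxia also induces, rose by 2.07 (SE 0.243), Pmaip1, which encodes the death factor NOXA, by 0.94 (SE 0.200), and Ero1a, the hypoxia-inducible ER oxidase gene, by 1.16 (SE 0.277). Nupr1, a stress-induced chromatin protein gene, fell from 26.5 ± 13.2 to 3.27 ± 1.87 CPM (-3.01, SE 0.547). Vldlr, a lipoprotein receptor gene, fell from 91.0 ± 20.5 to 17.1 ± 0.190 CPM (-2.41, SE 0.189). Vldlr kept its call even with the TMRM-high libraries summed (adjusted p = 0.0356). Pmaip1 and Ero1a lost theirs whichever TMRM-high library was left out (0.0823 to 0.15), and Ero1a without TMRM-low replicate 2 as well (0.0752). Nupr1 lost its call without TMRM-high replicate 1 or 3, at up to 0.0779.

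Mitochondrial stress also feeds into eIF2 phosphorylation, through OMA1, DELE1 and the kinase HRI. None of 14 genes of this route and of the mitochondrial chaperones and proteases was called by edgeR, DESeq2 or limma voom, with 1 higher and 1 lower at an unadjusted p under 0.05. EdgeR called 1 higher without TMRM-low replicate 1 and 2 lower without TMRM-low replicate 2. The genes of the route, named after their values were seen, did not pass. Oma1 was lower in every TMRM-high library (22.7 ± 1.86 against 38.0 ± 14.1 CPM, log2 fold change -0.74, SE 0.269). Dele1 (-0.42, SE 0.266) and Eif2ak1, for HRI (-0.03, SE 0.163), overlapped. Hspd1, the mitochondrial chaperonin, was at 340.2 to 376 CPM in TMRM-high and 330.1 to 391 CPM in TMRM-low libraries (log2 fold change -0.01, SE 0.080). Hspa9, the mitochondrial HSP70, was at 331 to 343 against 338 to 377 CPM (-0.08, SE 0.064). Both overlapped between the groups, and the fitted value of Hspd1 was 0.01 with scaling by total counts.

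The marker lists of other cell types and of HSCs differed in RNA level between the groups. Granulocyte and monocyte markers summed to 15600 to 16000 CPM in TMRM-high and 3720 to 4090 CPM in TMRM-low libraries, with 11 of 12 called higher. The exception was the monocyte marker Csf1r, named after its values were seen. It was at 28.5 ± 1.74 against 34.1 ± 13.2 CPM and did not pass. B lymphoid markers summed to 508 to 515 against 43.8 to 45.9 CPM (8 of 9 higher), erythroid markers to 155 to 172 against 35.2 to 39.2 CPM (4 of 7 tested higher), and basophil and mast cell markers to 525 to 533 against 191 to 208 CPM (5 of 8 higher). No marker was at 0 in all libraries of a group. Of the first pair of genes on each list, the granule protein genes Elane (3036 ± 78.3 against 232 ± 23.9 CPM, SD, n = 3) and Mpo (5534 ± 46.7 against 1844 ± 66.0 CPM) rose. The B cell receptor genes Cd79a (98.6 ± 7.71 against 2.04 ± 1.13 CPM) and Cd79b (62.0 ± 3.29 against 36.8 ± 2.82 CPM) and the erythroid genes Car1 (63.5 ± 2.25 against 3.11 ± 1.203 CPM) and Klf1 (10.5 ± 1.16 against 1.02 ± 1.04 CPM) rose too. Of the basophil protease genes, Prss34 was at 68.9 to 73.3 against 0 to 0.521 CPM, and Mcpt8, at 39.5 ± 1.25 against 24.6 ± 4.88 CPM, did not pass. Gata2 of the same list, named after its values were seen, was at 219 ± 5.35 against 143 ± 13.2 CPM. It made up most of the sum of that list in TMRM-low libraries. HSC markers, among them Procr (3.57 ± 0.304 against 33.9 ± 9.84 CPM) and Hlf (52.5 ± 3.79 against 152 ± 12.9 CPM), both called lower, summed lower in TMRM-high libraries, at 599.8 to 606.7 CPM against 940.1 to 1027 CPM, with 5 of 12 lower and none higher (edgeR; 0 higher also at an unadjusted p under 0.05 and by DESeq2 or limma voom). Of the genes behind the sort, named after their values were seen, Ly6a of Sca-1 was called lower, at 30.3 ± 2.18 against 167 ± 7.77 CPM. Kit (263 ± 4.93 against 248 ± 53.9 CPM) and Slamf1 of CD150 (5.53 ± 0.569 against 5.13 ± 3.98 CPM) did not pass. T and NK markers had 1 of 6 tested genes higher and 4 lower. Their sum, 604 to 613 against 343 to 430 CPM, was mostly Nkg7, named after its values were seen, at 556 ± 6.18 against 218 ± 24.1 CPM (SD, n = 3), while Cd3d of T cells fell from 126 ± 15.7 to 46.6 ± 3.46 CPM and Cd3e had at most 0.764 CPM. Whichever TMRM-high library was left out, 2 of the erythroid calls were kept, while Klf1 and Cd79b lost theirs. Klf1 lost its call without TMRM-low replicate 3 too. The sort took cells without lineage markers and CD48 and with CD150. The part of these markers in the results above was not tested.

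**Figure D4:**
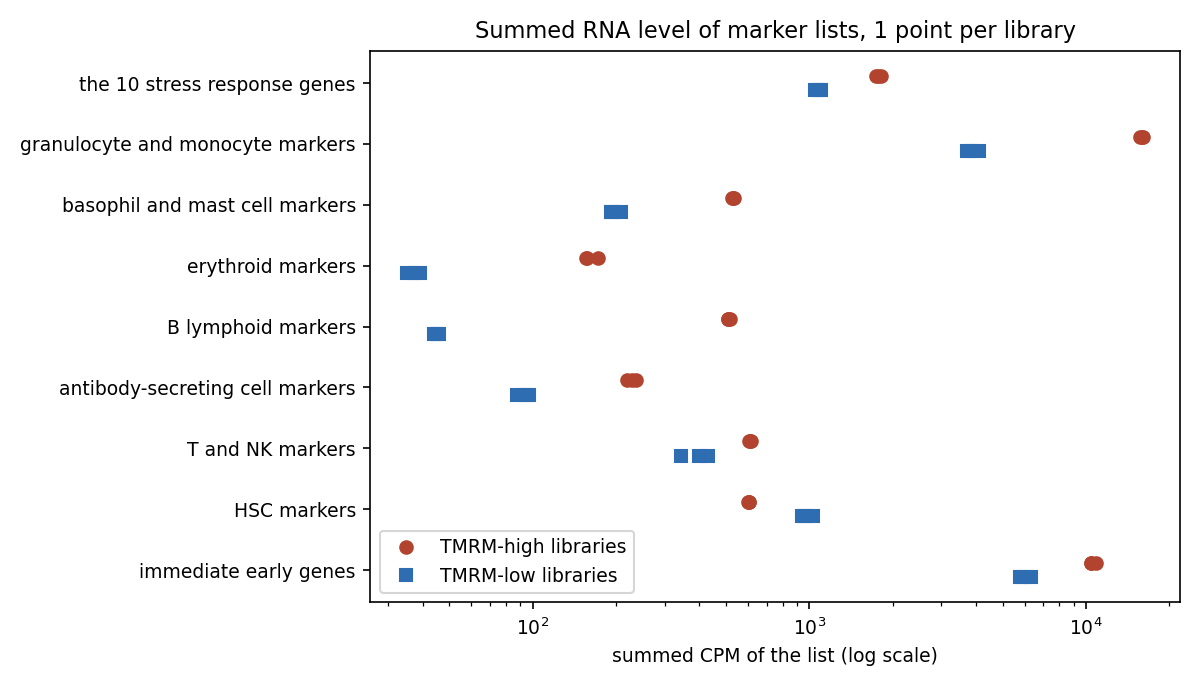
Summed CPM of the 10 stress response genes and of 8 marker lists in each library, on a log axis, with circles for TMRM-high and squares for TMRM-low libraries. The stress response genes sum to 1750 to 1810 CPM against 1050 to 1100 CPM, a smaller gap in ratio than that of the granulocyte, B lymphoid or erythroid markers, and the HSC markers lie lower in TMRM-high libraries.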

How the data were processed

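The 10 genes and the related and marker lists were chosen with earlier results of these data known. RNA of 1500 sorted cells per library was amplified full-length (13 cycles) and sequenced in pairs of 150 bases, per the labels' protocols, without molecular identifiers or strand. The authors deposited estimated counts per gene, of which 25.2% to 29.1% were not whole; Trim Galore 0.5.0, Salmon (listed as version 0.03.1) and GRCm38 are named in the submitters' processing notes. How transcripts were annotated and summed per gene is not given in the sources used here. Symbols and positions came from GENCODE M21 for 27728 of 28786 gene identifiers.

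Counts were rounded, filtered with filterByExpr (13662 genes left), scaled by TMM and tested with edgeR 4.0.16's quasi-likelihood test (robust, group as the only term; R 4.3.3); SE is the log2 fold change divided by the root of F. The procedure was tested on simulated data with the same spread in both groups. That simulation does not cover the unequal spread of these libraries. CPM used TMM-scaled totals. Alternatives were other scalings and filters, DESeq2 1.42.0, limma 3.58.1 voom with quality weights, a replicate block, each library left out, TMRM-high libraries summed, unrounded counts and a threshold of 0.1. Named were all 10 genes, up to 4 called genes with the smallest p in each related list, and the first 2 genes of marker lists. The rule also picked up to 2 genes per related list that did not pass, by the highest mean CPM. These are given only for the chaperone, synthetase and mitochondrial lists. Genes named from the other related lists were called or were picked after their values were seen. Genes outside this rule are marked as chosen after their values were seen.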

Additional observations from a re-analysis of the deposited data

How the results depend on the processing

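The 6 genes called higher stayed called under 3 other scalings (total counts, upper quartile, RLE), no filter, a mean count of at least 50, DESeq2, limma voom, the replicate block, unrounded counts and a threshold of 0.1. Xbp1 was added with total counts (adjusted p = 0.0474), no filter (0.0367), DESeq2, limma voom and the block. Leaving out 1 library gave 4 to 7 of the 10 genes higher, 270 to 1343 of all genes higher and 194 to 1160 lower, and 5 to 26 related genes higher and 2 to 13 lower. With the TMRM-high libraries summed, 0 of the 10 genes, 86 of all genes and 0 related genes were higher, and 42 of all genes and 1 related gene lower; this leaves fewer samples. DESeq2 called 1324 genes higher and 1337 lower and 10 related genes lower, and a threshold of 0.1 gave 1138 lower; for DESeq2 the cause was not tested.

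Deviations of same-numbered libraries from their group means had correlations of -0.009, -0.001 and 0.03. TMRM-high libraries varied so little that these values cannot settle whether the libraries were paired. The numbers were not taken as pairs in the main fit. With the replicate block 582 genes were higher and 449 lower, 7 of the 10 genes were higher (Xbp1 at an adjusted p of 0.029), 15 related genes were higher and 5 lower (no longer called were Eif2ak2, Pmaip1, Ero1b, Sec61g, Sec63, Serp1 and Creld2, at adjusted p-values of 0.0539 to 0.0894), and Trib3 was at a log2 fold change of 0.067. Hspd1 was at 0.01 with total counts. Leaving out 1 library gave ranges that cross 0, of -1.52 to 1.12 for Trib3, -2.25 to 0.79 for Chac1, -0.38 to 0.044 for Asns, -0.12 to 0.66 for Ern1 and -0.06 to 0.063 for Hspd1. At 0 to 67 counts per library, depth limits what Chac1 can show, and it had no value under the filter at a mean count of 50.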

Other observations

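Values of 3 secretory pathway genes outside the naming rule are given here, chosen after they were seen. Selenos, which encodes a selenoprotein of ER-associated degradation, averaged 116 ± 6.85 CPM in the TMRM-high group and 74.1 ± 10.7 CPM in the TMRM-low group (SD, n = 3; log2 fold change 0.65, SE 0.128, edgeR adjusted p = 0.0189). Creld2, a secreted ER stress gene, lay just inside the threshold, with means of 73.5 ± 2.73 and 48.6 ± 9.03 CPM (adjusted p = 0.04996 in edgeR, log2 fold change 0.60, SE 0.156). Creld2 did not pass under upper-quartile scaling (0.0588), without TMRM-low replicate 1 (0.0713) or 3 (0.0543), or whichever TMRM-high library was left out (0.175 to 0.214). Sec24d, of the coat of vesicles that leave the ER, lay just outside it with a larger fitted change, with means of 21.96 ± 1.61 and 7.21 ± 3.52 CPM (adjusted p = 0.0504 in edgeR, log2 fold change 1.61, SE 0.421).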
